A study of Mus musculus with 2 samples.

Results

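Neurog1, Neurog2, Eomes, Insm1, Btg2, Gadd45g, Neurod1, Neurod4 and Hes6 were followed in single cells of the embryonic mouse cortex. They were taken by symbol from the list of measured genes and make up 9 of its 32285 genes. The study dissociated dorsal telencephalon of mouse embryos at embryonic day 14.5 with papain and profiled single cells with a droplet kit that tags the 3′ ends of polyadenylated RNA and counts unique molecular identifiers (UMIs). The labels give the tissue as brain hemispheres and the genotype as WT for both libraries, named here replicate 1 and replicate 3. The title of each sample carries the name of a mouse line (EoMltt3), and the labels do not say whether a WT animal of this line carries an allele that touches Eomes, which limits what the level of Eomes stands for. There was 1 group with 2 libraries, so every comparison below is between cell classes of the same libraries.

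During cortical neurogenesis, radial glial cells (RGC) divide at the ventricle and give rise to intermediate progenitor cells (IPC), which divide again and produce projection neurons (PN). Neurog1 and Neurog2 are proneural basic helix-loop-helix factors that pair with E proteins, bind E-box sites and drive the step from progenitor to neuron. Eomes, also called Tbr2, is the T-box factor that defines IPC, and Insm1 is a zinc-finger factor that promotes the formation of these basal progenitors. Neurod1 and Neurod4 are helix-loop-helix factors that act after the proneural genes, and Hes6 is a relative of the Notch effector Hes1 that counteracts it. Btg2, also called Tis21, is an antiproliferative factor that marks neuron-producing divisions, and Gadd45g belongs to a family of growth arrest and stress response proteins.

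Replicate 1 held 6163 barcodes with 64182006 UMIs and replicate 3 held 8870 barcodes with 93295807 UMIs, with medians of 9802 and 9754 UMIs per barcode. After filters on UMIs, mitochondrial share and predicted doublets, 5149 and 6854 cells were kept, and 23 barcodes (14 of the kept cells) occurred in both libraries. The cells fell into 27 clusters, which were named from markers that include none of the 9 genes, and the 9 genes were also left out of the genes used for clustering. RGC-like cells (clusters 6, 10, 14 and 15) numbered 634 and 1486 in replicates 1 and 3, and IPC-like cells (clusters 17, 4 and 2) 771 and 1430. PN-like cells (clusters 1, 5, 7, 8, 11 and 16) numbered 2105 and 2036. Of the IPC-like cells, 370 and 704 were of cluster 2, which had 8 of 10 IPC markers but also 4 of 10 PN markers on. Values of the IPC-like class therefore mix progenitor-like cells with cells that may be young neurons. Cortical progenitors and neurons were thus present as the tissue label says, together with interneuron-like and striatal neuron-like cells, of which 448 of the 474 cells of cluster 13 came from replicate 1. Cluster 9, with 209 and 377 cells, had 4 of 10 RGC markers and 4 of 10 IPC markers on and stayed unnamed, and cluster 3, with 359 and 600 cells, had 5 of 10 IPC markers and 5 of 10 PN markers on and stayed unnamed too. Because classes were cut from the same cells in which the genes are then compared, a difference between classes is a description of these cells rather than independent evidence.

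The 5′ flanks of the genes are shown because Neurog1, Neurog2, Neurod1 and Neurod4 are helix-loop-helix factors that act through E-boxes with the letters CANNTG. RefSeq (GRCm38.p6) promoters were matched for 8 of the 9 genes, 10 promoters in all, and the 250 bases before each start were searched; Insm1 had no entry. E-boxes were found in 4 of the 10, in Gadd45g, Neurod1 and both Hes6 promoters, beside 66.2% of all 32851 promoters searched. The form CAGCTG was in 3 of the 10 (13% of all promoters), and the form CAGATG or its reverse complement CATCTG was in 0 of the 10 (14.4% of all). CANNTG reads the same on both strands, so a match counts once, and CAGCTG is one of its forms. The lines below run 5′ to 3′ on the strand of the gene, with E-boxes in capitals, and the Neurog1 flank is printed as one with no match. Gadd45g lies at chr13:51846425-51846674 (+ strand), Hes6 at chr1:91414039-91414288 (− strand), Neurod1 at chr2:79456637-79456886 (− strand) and Neurog1 at chr13:56252181-56252430 (− strand).
Gadd45g: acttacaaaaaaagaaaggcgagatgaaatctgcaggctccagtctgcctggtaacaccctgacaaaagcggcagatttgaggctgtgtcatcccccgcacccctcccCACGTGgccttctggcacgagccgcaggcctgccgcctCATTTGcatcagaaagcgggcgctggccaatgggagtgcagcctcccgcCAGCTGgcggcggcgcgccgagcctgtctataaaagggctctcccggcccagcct
Hes6: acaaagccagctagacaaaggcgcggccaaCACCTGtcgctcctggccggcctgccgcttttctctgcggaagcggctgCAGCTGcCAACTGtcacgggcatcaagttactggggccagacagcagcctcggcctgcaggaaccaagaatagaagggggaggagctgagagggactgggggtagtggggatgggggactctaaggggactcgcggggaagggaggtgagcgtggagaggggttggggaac
Neurod1: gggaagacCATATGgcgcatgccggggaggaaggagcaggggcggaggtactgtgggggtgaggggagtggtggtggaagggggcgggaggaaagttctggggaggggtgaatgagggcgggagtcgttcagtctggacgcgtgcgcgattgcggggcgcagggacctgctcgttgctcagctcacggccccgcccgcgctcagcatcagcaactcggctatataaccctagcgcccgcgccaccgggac
Neurog1: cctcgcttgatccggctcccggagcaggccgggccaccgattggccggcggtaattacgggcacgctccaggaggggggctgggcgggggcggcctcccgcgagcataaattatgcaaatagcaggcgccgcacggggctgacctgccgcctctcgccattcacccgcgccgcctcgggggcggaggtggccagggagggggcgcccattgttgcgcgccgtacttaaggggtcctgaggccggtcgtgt
The matches are letters in a window of fixed length, and nothing about binding was measured.

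Levels are given as CPM, the UMIs of a gene scaled to a per-million total over the cells of a group, replicate 1 first. Neurog2 (ENSMUSG00000027967, chr3:127632733-127635636) reached 680 and 553 CPM in cluster 9 and 547 and 400 in cluster 4. It was at 253 and 245 CPM in cluster 17, whose leading genes are cell cycle genes such as Neil3 and Spc25, and at 75.1 and 71.4 in cluster 2, which is led by Cdh8, Unc5d and Neurod1. RGC-like cells as a whole had 57.2 and 49.5 CPM and PN-like cells 10.7 and 10.0. The lower value of cluster 9 lay just above the higher value of cluster 4, and both clusters stood above all other clusters in both replicates. Among the RGC-like clusters, Neurog2 ran from 35.7 and 17.1 CPM in cluster 10 to 116 and 83.3 in cluster 15. Neurog1 (ENSMUSG00000048904, chr13:56250478-56252180) had far fewer UMIs, 663 over both libraries against 13300 for Neurog2. Its level was 36.3 and 41.9 CPM in cluster 9, 17.3 and 29.97 in cluster 4, 13.5 and 21.9 in cluster 17, and 0.782 and 1.70 in cluster 2. In RGC-like cells it was at 1.46 and 0.927 CPM and in PN-like cells at 0.118 and 0.164. Cluster 9 thus held the highest level of Neurog1 in each replicate.

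Eomes (ENSMUSG00000032446, chr9:118478186-118486132) was highest in cluster 4, at 801 and 509 CPM. Cluster 9 followed with 663 and 356, cluster 17 with 446 and 317 and cluster 2 with 298 and 231. It was low at both ends, with 17.2 and 10.4 CPM in RGC-like cells and 8.49 and 4.06 in PN-like cells. Replicate 3 had less Eomes than replicate 1 in each of these groups, its level being 0.604 times that of replicate 1 in RGC-like cells, 0.705 times in IPC-like cells and 0.478 times in PN-like cells, so clusters 4 and 9 overlapped across replicates. In PN-like cells cluster 8, with 464 and 192 cells, held 148 of the 216 Eomes UMIs of replicate 1 and 26 of the 99 of replicate 3. The part of this unevenly sampled cluster in the PN-like ratio was not tested. Insm1 (ENSMUSG00000068154, chr2:146221997-146225020) had another order. It was highest in the cycling cluster 17, at 243 and 171 CPM, then in cluster 9 at 131 and 132. Cluster 3, between IPC and PN, had 118 and 69.6 CPM, and clusters 4 and 2 had 79.0 and 66.1 and 79.0 and 61.9. PN-like cells had 45.1 and 33.0 CPM of Insm1, against 23.1 and 12.8 in RGC-like cells. The PN-like clusters differed, with a mean over the replicates of 13.1 CPM in cluster 1. In clusters 5, 7, 8, 11 and 16 the means lay between 26.3 and 71.5 CPM.

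Gadd45g (ENSMUSG00000021453, chr13:51846675-51848475) was at 643 and 916 CPM in cluster 9, 442 and 595 in cluster 4 and 207 and 336 in cluster 17. It dropped to 43.8 and 73.1 CPM in cluster 2 and to 15.1 and 29.2 in PN-like cells. RGC-like cells had 39.7 and 60.6 CPM, and within them cluster 15 stood out with 134 and 153. Replicate 3 had more Gadd45g than replicate 1 in every one of these groups, 1.53 times as much in RGC-like and 1.48 times in IPC-like cells. Btg2 (ENSMUSG00000020423, chr1:134074865-134079155) had 226 and 203 CPM in cluster 9, 155 and 156 in cluster 4 and 113 and 105 in cluster 17, against 43.5 and 44.0 in RGC-like cells and 11.7 and 13.3 in PN-like cells. Its replicates lay closer than those of Eomes or Gadd45g, and clusters 9, 4 and 17 kept their order in both. Hes6 (ENSMUSG00000067071, chr1:91411483-91414038) was at 299 and 382 CPM in cluster 9, 273 and 353 in cluster 4 and 220 and 273 in cluster 17. These 3 groups overlapped across replicates, while RGC-like cells at 51.6 and 65.7 and PN-like cells at 52.5 and 54.9 CPM lay well below them.

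The clusters are listed by the classes of their markers, which is no measured order in time. Neurod1 (ENSMUSG00000034701, chr2:79452637-79456636) was highest in cluster 2, unlike the others. It was nearly absent from cluster 9, at 2.76 and 7.59 CPM, where Neurog1, Neurog2, Btg2 and Gadd45g were at their highest. It was at 97.0 and 79.4 CPM in cluster 17, 218 and 152 in cluster 4 and 360 and 295 in cluster 2. Neurog2 was lower in cluster 2 than in cluster 4, at 75.1 and 71.4 CPM against 547 and 400. Neurod1 was at 160 and 150 CPM in cluster 3 and at 49.1 and 50.1 in PN-like cells, with only 0.788 and 2.06 in RGC-like cells. Neurod4 (ENSMUSG00000048015, chr10:130268152-130280254) was the most confined, with 46.0 and 42.9 CPM in cluster 4, 12.3 and 20.5 in cluster 17, 5.97 and 9.84 in cluster 9 and 4.43 and 4.80 in cluster 2. RGC-like cells held 0 and 1 UMIs of it, and PN-like cells 3 and 1.

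**Figure D1:**
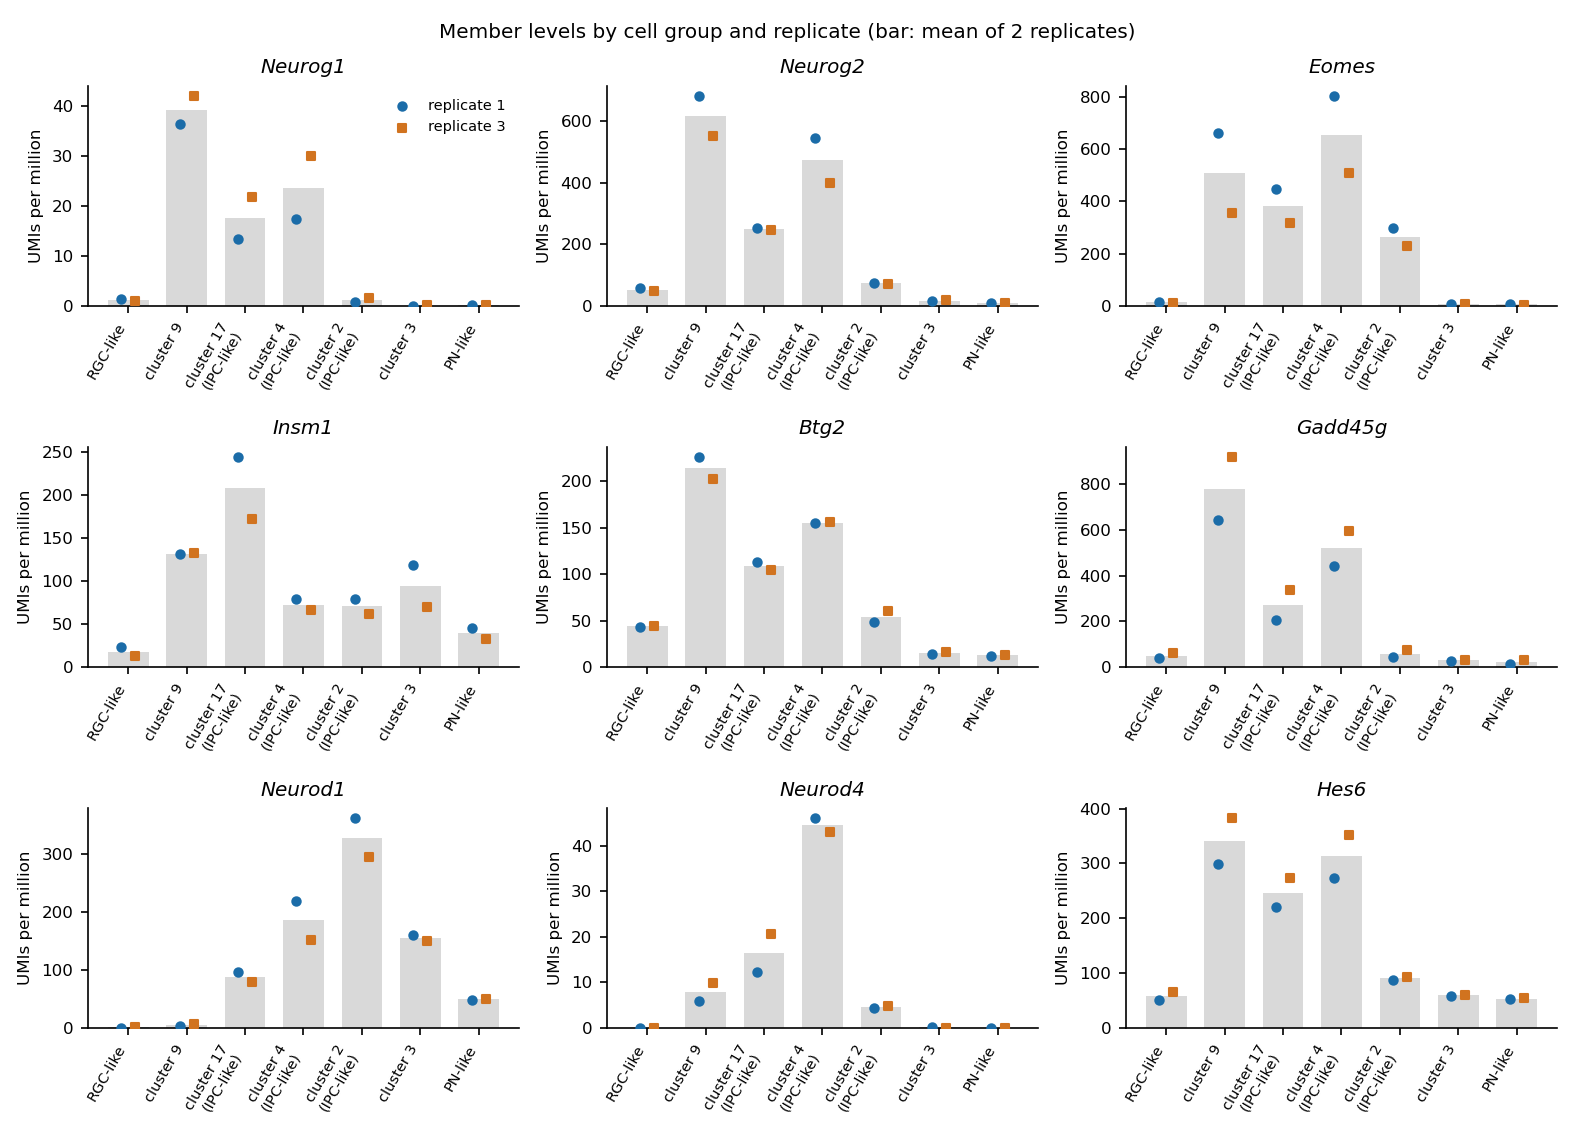
Levels of the 9 genes in CPM (vertical axes start at 0, 1 panel a gene) in RGC-like cells, unnamed cluster 9, IPC-like clusters 17, 4 and 2, unnamed cluster 3 and PN-like cells; points are the 2 replicates and bars their mean. Neurog1, Neurog2, Btg2, Gadd45g and Hes6 have their highest mean in cluster 9, Eomes and Neurod4 in cluster 4, Insm1 in cluster 17 and Neurod1 in cluster 2.

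Other cell classes held some of these transcripts as well. Cluster 23, of the cortical hem or choroid plexus type with 17 and 87 cells, had 175 and 143 CPM of Btg2, 169 and 135 of Gadd45g and 169 and 147 of Hes6. Cluster 26, of the same type with 29 cells of replicate 3, had 15.8 of Btg2, 112 of Gadd45g and 33.3 of Hes6. Cajal-Retzius-like neurons had 131 and 156 CPM of Gadd45g, and striatal (LGE) neuron-like cells (448 and 26) had 51.0 and 55.1 of Insm1 and 78.0 and 94.5 of Hes6. Interneuron-like cells of the medial ganglionic eminence (MGE) were low for all 9, the highest being Hes6 with 31.4 and 47.1 CPM. Neurog1 was at 0 UMIs in MGE interneuron-like cells in both replicates.

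All 9 genes were higher in IPC-like than in RGC-like cells in edgeR's quasi-likelihood test on class sums of each replicate, with adjusted p under 0.05. Over all 15795 genes tested, 25.2% were higher and 25.2% were lower, and the median log2 fold change was 0.00 against 2.59 for the 9. Neurod1 rose by 7.14 on the log2 scale (SE 0.26, adjusted p = 3.18e-07), with 8.15 in replicate 1 and 6.65 in replicate 3. Neurod4 had 499 UMIs in IPC-like and 1 in RGC-like cells, a ratio of 613 with a counting interval of 110 to 24264. Eomes rose by 5.11 (SE 0.38, adjusted p = 1.06e-05) and Neurog1 by 3.44 (SE 0.37, adjusted p = 1.40e-04). Insm1, Gadd45g and Neurog2 rose by 2.59, 2.53 and 2.37, Hes6 by 1.90 and Btg2 by 1.34 on the log2 scale, with SEs between 0.11 and 0.32.

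From IPC-like to PN-like cells all 9 fell, beside 21.8% of all genes that were lower and 24.2% that were higher in that comparison. The median log2 fold change of the 9 was −3.49, against 0.01 over all genes. Eomes fell by 5.95 (SE 0.39, adjusted p = 4.93e-06) and Neurog2 fell by 4.48 (SE 0.23, adjusted p = 1.34e-06). Neurog1 had 310 UMIs in IPC-like and 7 in PN-like cells, a ratio of 95.9 (46.0 to 240), and Neurod4 499 and 4, a ratio of 270 (105 to 995). The smallest falls were those of Insm1 with −1.19 (SE 0.25, adjusted p = 0.00439), Hes6 with −1.81 and Neurod1 with −2.11. Between PN-like and RGC-like cells, where 34.8% of genes were higher and 30.2% lower, the 9 parted. Neurod1 (5.03, SE 0.25) and Insm1 (1.40, SE 0.27, adjusted p = 0.00162) were higher in PN-like cells, and Neurog2 (−2.11), Neurog1 (−1.96), Btg2 (−1.57) and Gadd45g (−0.96) were lower. These are values of the whole class, and cluster 1, the largest PN-like cluster, did not share the rise of Insm1. Its mean level of Insm1 over the replicates was 13.1 CPM, against 17.9 CPM in RGC-like cells. Mean Neurod1 ran from 7.10 CPM in cluster 1 to 124 CPM in cluster 16, above the 1.42 CPM of RGC-like cells. Eomes was at −0.84 (SE 0.37, adjusted p = 0.0736), which passed the threshold with the replicate as a block (−0.90, adjusted p = 0.00363) and in 11 of 14 alternatives in all, at down to −4.16 with Leiden resolution 2.0. The call on Insm1 was lost with at least 3000 UMIs and under 5% mitochondrial UMIs (0.48, adjusted p = 0.113), at resolution 2.0 (0.52, adjusted p = 0.0588) and with markers on above 0.5 (0.28, adjusted p = 0.303). Hes6 was at 0.09 (SE 0.17, adjusted p = 0.642), with a sign that turned under library size scaling (−0.13), and Neurod4 had too few UMIs in both classes for a fold. In this comparison 53.5% of the called genes were higher with TMM scaling and 42.0% with library sizes only, which moved the median of all genes from 0.07 to −0.16, and Eomes then passed at −1.07 (adjusted p = 0.0303).

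The size of the rise from RGC to IPC turned on the unnamed cluster 9. Counted among IPC-like cells, it left all 9 genes past the threshold, with Neurog1 at 3.93, Neurog2 at 2.71 and Gadd45g at 2.97. Counted among RGC-like cells, it brought Neurog1 down to 0.84 (adjusted p = 0.0339), Neurog2 to 0.84 (adjusted p = 0.0137), Btg2 to 0.59, Hes6 to 1.03 and Gadd45g to 0.73, and Gadd45g then missed the threshold (adjusted p = 0.0563). Eomes then dropped from 5.11 to 2.18, Neurod4 from 6.85 to 3.90 and Insm1 from 2.59 to 1.48, each still past the threshold, and Neurod1 was at 6.69. The call on Gadd45g was also lost with at least 3000 UMIs and under 5% mitochondrial UMIs (0.52, adjusted p = 0.141). The same cluster also moved the comparison of PN-like with RGC-like cells: with it among RGC-like cells, Eomes was lower in PN-like cells by −3.78 (adjusted p = 8.08e-05), Hes6 by −0.78 (adjusted p = 0.00178), and Insm1 no longer differed past the threshold (0.29, adjusted p = 0.264). These placements were chosen after seeing the data.

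**Figure D2:**
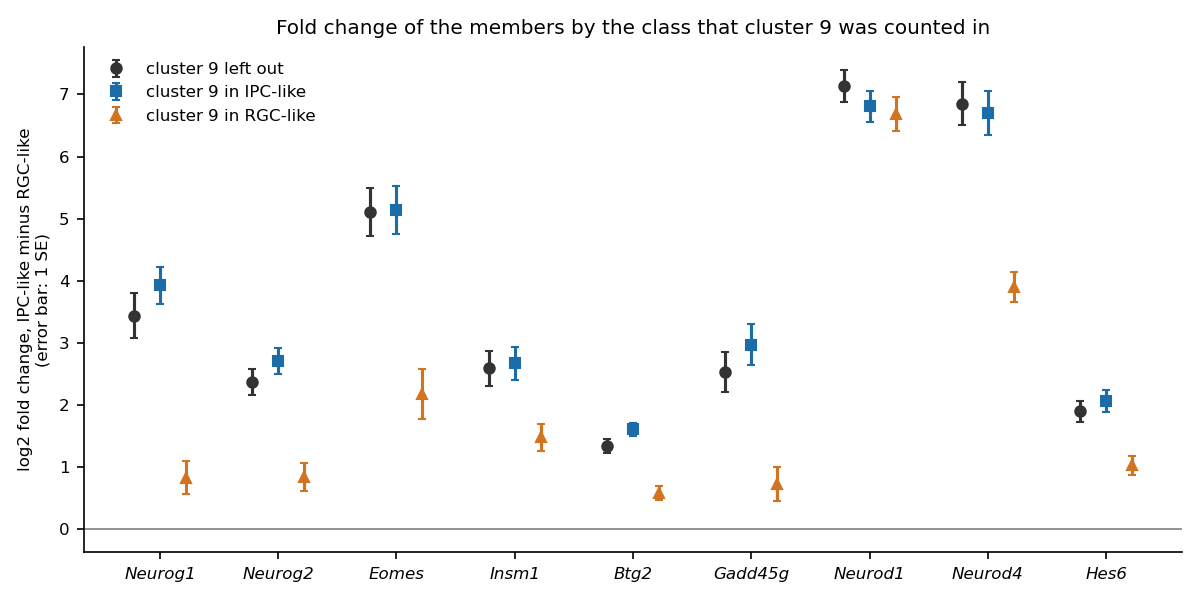
Fitted log2 fold change of each gene between IPC-like and RGC-like cells (points, with 1 SE as bars), with cluster 9 left out, counted in IPC-like or counted in RGC-like cells. With cluster 9 among RGC-like cells the points of Neurog1, Neurog2, Btg2 and Gadd45g drop below 1, Eomes falls to 2.18 and Neurod4 to 3.90, and Neurod1 is at 6.69.

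The share of cells with at least 1 UMI was compared after thinning each cell to 3000 UMIs. Eomes was detected in 62.3% (95% Wilson interval 58.8 to 65.7%) of 764 IPC-like cells of replicate 1 and 55.4% (52.8 to 58.0%) of 1386 of replicate 3, and without thinning in 80.4% and 76.9%. In RGC-like cells it was seen in 3.59% and 2.75% (unthinned 7.89% and 6.93%), and in PN-like cells in 1.86% and 0.820%. For background, endothelial, pericyte, meningeal, red blood and microglia-like cells as one group showed Eomes in 1.36% and 1.40%, and in replicate 3 the 19 microglia-like cells held 27 of the 32 Eomes UMIs of that group. The PN-like class was close to these shares as a whole, but its cluster 8 was above them with 6.16% and 4.09%. The background group's median depths were 10669 and 10560 UMIs, against 10353 and 9802 in IPC-like cells, and the intervals cover counting error only. Neurog2 was seen in 11.4% and 12.9% of RGC-like cells (unthinned 26.0% and 29.1%), 39.0% and 36.7% of IPC-like cells (59.4% and 58.5%) and 75% and 70.6% of cluster 9 cells (90.4% and 85.4%), with a background of 1.36% and 1.75%. In replicate 3 the 19 microglia-like cells held 18 of the 29 Neurog2 UMIs of the background group. The share of Neurog2 in RGC-like cells was well above that of the background group in both replicates. Neurod1 was seen in 44.5% and 39.5% of IPC-like cells (unthinned 69.5% and 63.1%), 11.2% and 9.02% of PN-like cells, and 0.163% and 0.481% of RGC-like cells. The RGC-like share of Neurod1 could not be told apart from its background. That was 0.680% (1 of 147 cells) in replicate 1 and 0 of 286 cells in replicate 3, which allows up to 1.05%. Neurod4 was seen in 5.37% and 6.28% of IPC-like cells and in 0 of 613 and 0 of 1456 RGC-like cells, which allows shares of up to 0.489% and 0.206%. In the background group Hes6 was seen in 7.48% and 5.24% of cells and Btg2 in 3.40% and 5.24%, beside 3.67% and 3.18% of PN-like cells for Btg2. Endothelial-like cells had 42.7 and 47.1 CPM of Btg2 and pericyte-like cells 24.3 and 48.9, near the RGC-like level, while red blood cell-like cells held 0 UMIs in both replicates, so for Btg2 this group is no measure of free RNA alone.

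Cells often carried transcripts of several of the 9 genes at once. After thinning, an IPC-like cell held 2.70 and 2.67 of them on average, a cluster 4 cell 3.70 and 3.65, a cluster 9 cell 3.63 and 3.5 and a cluster 2 cell 1.89 and 1.84. An RGC-like cell held 0.568 in both replicates, a PN-like cell 0.510 and 0.466 and a background cell 0.190 and 0.175. At least 5 of the 9 were seen in 13.2% and 13.5% of IPC-like cells and in 36.1% and 28.3% of cluster 9 cells, and the highest number in an IPC-like cell was 8 in each replicate. In RGC-like cells 35.4% and 37.6% held at least 1 of the 9 and 5.06% and 4.60% at least 3.

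Pairs of genes were read as the share of cells with UMIs of both, divided by the product of the shares of each gene, so that 1 stands for detection of one gene regardless of the other. Neurog2 and Eomes were seen together in 31.9% of IPC-like cells of replicate 1 (244 cells, product 24.3%) and 25.9% of replicate 3 (359 cells, product 20.3%), ratios of 1.31 and 1.28. Neurog2 and Neurod1 went the other way, together in 11.3% (86 cells, product 17.4%) and 9.45% (131 cells, product 14.5%), a ratio of 0.65 in both. Of the cells with Neurog2, 81.9% and 70.7% also had Eomes, and 28.9% and 25.8% had Neurod1. All 8 pairs with Neurod1 were below 1 in both replicates, with mean ratios from 0.44 with Neurog1 (4 and 6 cells) to 0.92 with Eomes. Of the 28 pairs without Neurod1, 27 were above 1 in both, and the exception was Eomes with Insm1 at 0.895 and 0.960. Pairs with Neurog1 or Neurod4 rest on few cells, as Neurog1 was seen in 16 and 48 IPC-like cells and Neurod4 in 41 and 87. Pairs of other genes were not computed, so there is no background for these counts. The ratios are descriptive: they mix the clusters of a class, and cells of 1 library share its depth and its background.

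Within cluster 4 alone, the pairs without Neurod1 lay closer to 1, with a median of 1.09 against 1.36 in IPC-like cells, and 18 of the 28 were above 1 in both replicates and 1 below. Neurog2 and Eomes were at 1.02 and 1.01, although 62.4% and 46.2% of the cells held both, and Neurog2 and Gadd45g were at 1.09 and 1.08. The pairs with Neurod1 had a median of 0.80 against 0.77 in IPC-like cells, with 0.76 and 0.75 for Neurog2, 0.86 and 0.83 for Gadd45g and 0.74 and 0.70 for Hes6. Eomes and Neurod1 were at 0.98 and 1.06 there, so 6 of the 8 pairs with Neurod1 were below 1 in both replicates. In RGC-like cells, where few cells carried Eomes (3.59% and 2.75%), Neurog2 and Eomes had a ratio of 4.78 (12 cells) and 3.68 (19 cells). Neurog2 and Gadd45g had 4.19 and 2.97 there.

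**Figure D3:**
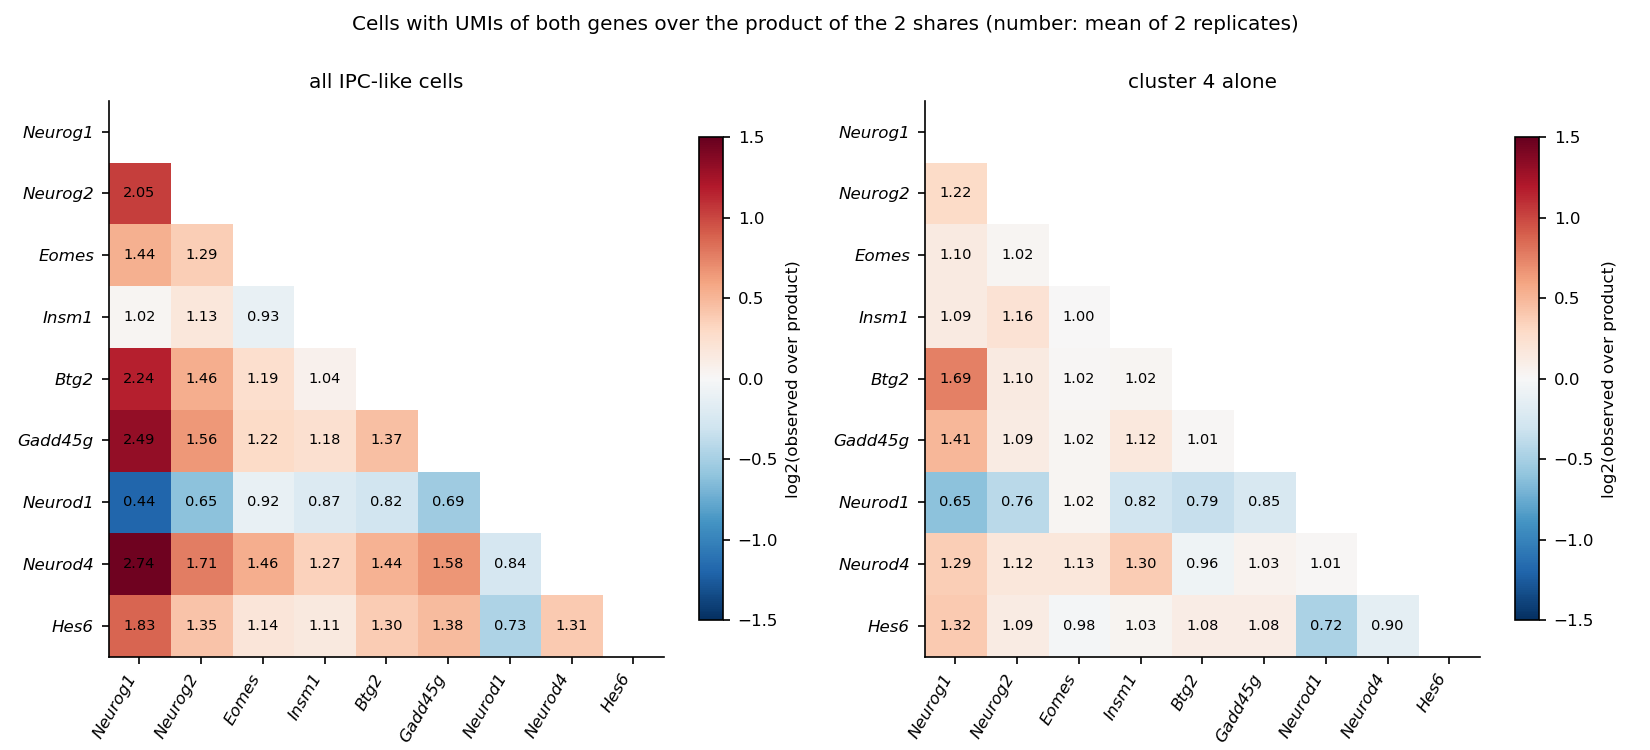
Share of cells with UMIs of both genes over the product of the shares of each, as the mean of the 2 replicates, for the 36 pairs in all IPC-like cells (left) and in cluster 4 alone (right); colours give the log2 of that ratio, red above and blue below 1. The row and column of Neurod1 are blue in IPC-like cells, from 0.44 to 0.92, while the other pairs run from 0.93 to 2.74.

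To order cells without these genes, each cell received a neuron share, the UMIs of 12 neuronal genes over the UMIs of those and 11 radial glial genes, and cells were placed in 10 bins of width 0.1. Bins 1 and 2 were at least 92.8% RGC-like, bins 5 and 6 between 78.0 and 96.0% IPC-like, and the last bins were mostly PN-like with 18.6 to 34.3% IPC-like cells. Neurog2 was seen in 10.9% and 10.95% of the cells of bin 1, climbed to 44.4% and 28.2% in bin 3 and to 70.7% and 62.0% in bin 5, stood at 68.0% and 71.3% in bin 6 and dropped to 6.23% and 9.37% in bin 10. Eomes began lower, at 2.67% and 2.45%, and in bin 3 was at 33.3% and 9.74%, where the replicates differed. It stood at 78.0% and 58.0% in bin 5, at 78.0% and 66.3% in bin 6 and still at 10.49% and 16.7% in bin 10. At bin 3 the share with Neurog2 was above that with Eomes in both replicates. Gadd45g peaked at 68.3% in bin 5 of replicate 1 and at 81.3% in bin 6 of replicate 3, and Hes6 at 58.5% and 68.8% in those bins. Neurod1 reached its highest share later: it was at 17.1% and 8% in bin 5, 29.1% and 20.2% in bin 7, and still at 21.7% and 24.5% in bin 10. The neuron share did not place IPC-like before PN-like cells throughout. Bin 10 held 1621 and 1782 cells, 18.6% and 33.8% of them IPC-like, against 50 and 80 cells in bin 6. Neurod1 was seen in 60.7% and 53.5% of cluster 2 cells, against 11.2% and 9.02% of PN-like cells. The part of IPC-like cells in the late Neurod1 was not tested.

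The bin with the most UMIs per cell, averaged over replicates, was centred at 0.35 for Neurog1, 0.45 for Eomes and Gadd45g, 0.55 for Neurog2, Insm1, Btg2, Neurod4 and Hes6, and 0.65 for Neurod1. These differences of 1 bin did not hold between the libraries. In replicate 3 alone Neurog1 peaked at 0.45, Eomes at 0.55, Neurod4 at 0.45 and Neurod1 at 0.95, and in replicate 1 alone Hes6 peaked at 0.35. In each replicate no peak of another gene lay beyond that of Neurod1. Bins 4 to 6 held 41 to 80 cells per replicate.

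**Figure D4:**
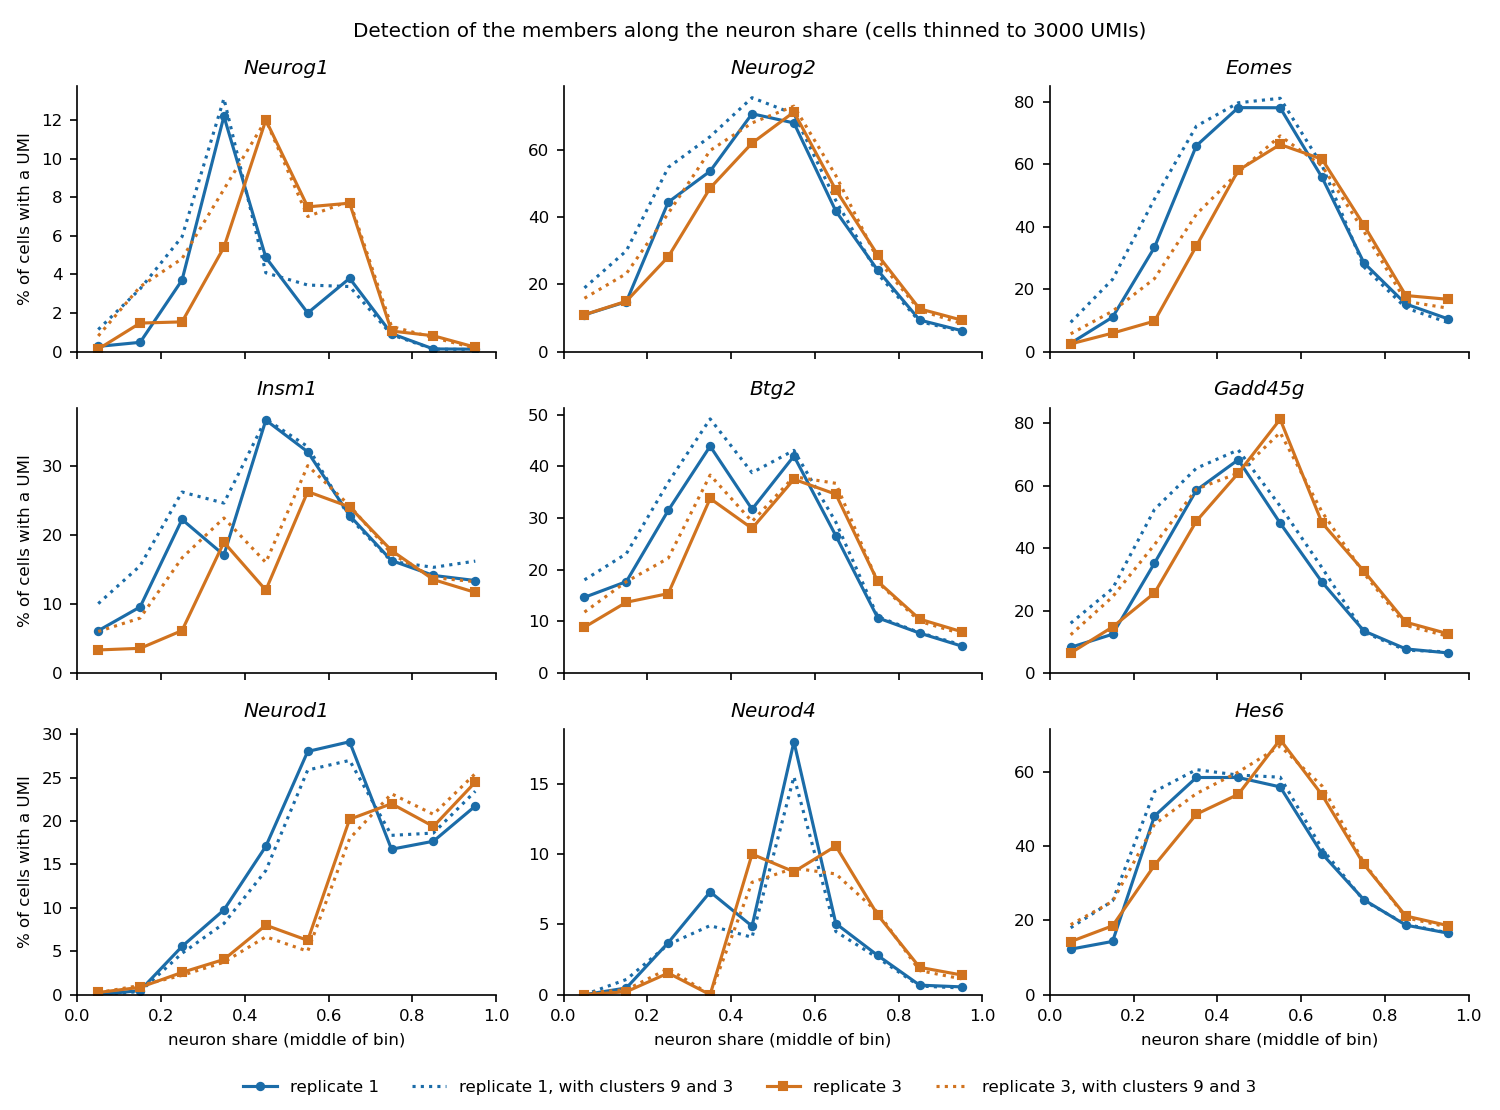
Percent of cells with a UMI of each gene (vertical axes start at 0) along the neuron share, in 10 bins, for RGC-like, IPC-like and PN-like cells thinned to 3000 UMIs; solid lines with points are the 2 replicates, dotted lines add the unnamed clusters 9 and 3. Neurog2 reaches 70.7% and 71.3% near the middle, while Neurod1 is still at 21.7% and 24.5% in the last bin. Of the cells of that bin, 18.6% and 33.8% are IPC-like.

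Phase calls from S and G2M gene lists were used to ask whether the genes differ with the cell cycle score in the same class. The lists hold none of the 9, and a phase call is a score, not a measure of cycling. RGC-like cells held 113, 205 and 295 cells called G1, S and G2M in replicate 1 and 279, 550 and 627 in replicate 3. IPC-like cells held 622, 48 and 94 in replicate 1 and 1190, 68 and 128 in replicate 3. In cluster 2, 98.6% and 99.1% of the cells were called G1, and in cluster 4 95.6% and 95.3%. The G1 calls of the IPC-like class came almost all from these clusters and its S and G2M calls mostly from cluster 17, so phase and cluster cannot be told apart there. In the RGC-like class, 61.8% and 50.8% of the cells of cluster 15 were called G1, against 26.9% and 17.4% of cluster 10, 15.7% and 20.8% of cluster 14 and no cell of cluster 6. Cluster 15 also had the highest RGC-like level of Neurog2, Gadd45g and Hes6, so phase and cluster cannot be told apart in RGC-like cells either.

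In RGC-like cells Neurog2 was at 97.3 and 106 CPM in G1 and at 30.9 and 26.1 in S. Gadd45g was at 103 and 166 CPM in G1 and at 24.4 and 15.8 in S. Neurog2 (−1.83, SE 0.27, adjusted p = 2.20e-04), Gadd45g (−2.82, SE 0.40, adjusted p = 1.83e-04), Btg2 (−1.25, adjusted p = 0.00403) and Hes6 (−1.02, adjusted p = 0.0128) were lower in S than in G1, 4 of the 9 beside 1.22% of the 9600 genes tested. For each of these 4, both S values lay below both G1 values. The 4 were picked by the test, and the share of all genes with such a gap was not counted, so this adds no support. Between G2M and G1, Gadd45g (−1.60, adjusted p = 0.00720), Neurog2 (−0.90, adjusted p = 0.0288) and Hes6 (−0.90, adjusted p = 0.0222) were lower, 3 of the 9 beside 1.89% of all genes. In replicate 1 alone Neurog2 was at −0.57 and Hes6 at −0.47, and the call on Neurog2 was lost with DESeq2 (adjusted p = 0.0600) and with cluster 9 counted among IPC-like cells (adjusted p = 0.243).

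In IPC-like cells Neurod1 was at 300 and 237 CPM in G1, 97.2 and 53.9 in S and 152 and 85.9 in G2M. It was lower in S (−1.94, SE 0.32, adjusted p = 3.95e-04; 5.34% of all genes lower) and in G2M (−1.24, SE 0.24, adjusted p = 0.00182; 4.36% lower). Insm1 was at 85.2 and 66.4 CPM in G1 and 231 and 164 in G2M, a rise of 1.32 (SE 0.30, adjusted p = 0.00678; 7.11% of genes higher), which missed the threshold with DESeq2 (adjusted p = 0.0920). No other gene of the 9 passed the edgeR test in either phase. Neurog2 in IPC-like cells was at 286 and 220 CPM in G1 and 243 and 402 in S, so the replicates moved apart.

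The step from G1 to S differed between the classes for 4 of the 9 genes, beside 0.927% of all genes with a higher difference in IPC-like cells. The interaction was 3.05 for Gadd45g (SE 0.52, adjusted p = 0.00541), 2.14 for Neurog2 (SE 0.34, adjusted p = 0.00424), 1.48 for Hes6 (SE 0.31, adjusted p = 0.0221) and 1.45 for Btg2 (SE 0.34, adjusted p = 0.0395), each positive in both replicates but smaller in replicate 1. In replicates 1 and 3 alone it was 1.21 and 3.68 for Gadd45g, 0.95 and 2.66 for Neurog2, 0.74 and 1.64 for Hes6 and 0.53 and 1.72 for Btg2, so the size rests on replicate 3. With the replicate as a block Insm1 joined them (1.73, adjusted p = 0.0390), and Btg2 missed the threshold with DESeq2 (adjusted p = 0.0520) and with no filter on low counts (1.21, adjusted p = 0.0737). For G2M, 0 of the 9 passed in edgeR's quasi-likelihood test, beside 0.542% of all genes with a higher difference, while 4 had an unadjusted p under 0.05. DESeq2 called 0 of the 9 as well, and with the replicate block 3 passed, Gadd45g (1.57), Insm1 (1.63) and Hes6 (0.97).

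**Figure D5:**
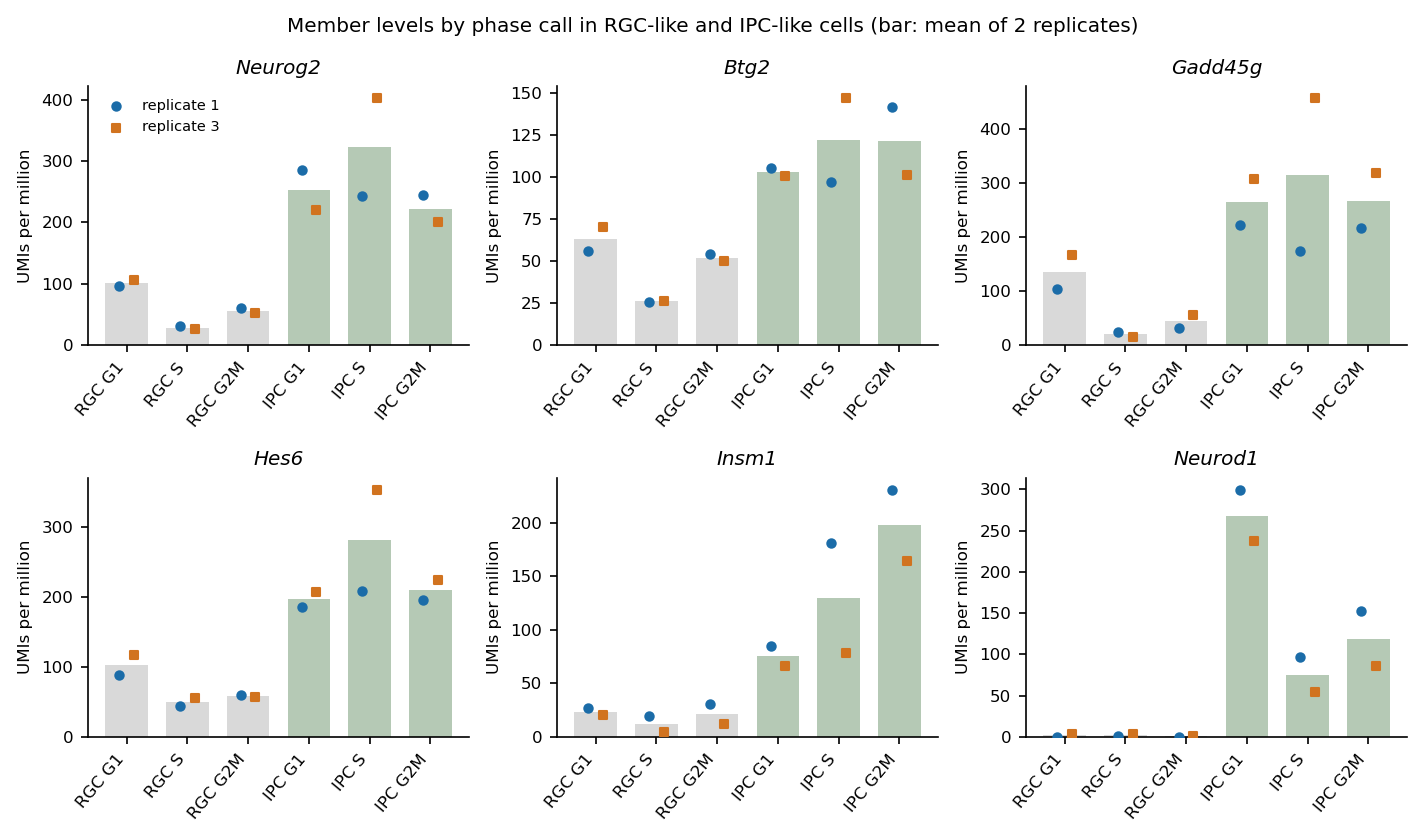
CPM of 6 of the genes (vertical axes start at 0) in RGC-like and IPC-like cells called G1, S or G2M, thinned to 3000 UMIs; points are the 2 replicates and bars their mean. In RGC-like cells Neurog2 and Gadd45g are highest in G1, and in IPC-like cells Neurod1 is highest in G1 and Insm1 in G2M.

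Genes known to work with the 9 were read as 6 fixed lists with 47 genes, each counted over the same fits. The shares over all genes given above, 25.2% higher and 25.2% lower in IPC-like than in RGC-like cells and 24.2% higher and 21.8% lower in PN-like than in IPC-like cells, are the background of these counts, and 3 of 9 or 4 of 12 genes lie near them. Among 8 inhibitors of the Id and Hes families, which block proneural factors, 7 were lower and 1 higher in IPC-like than in RGC-like cells. Hes1, the main Notch effector, was at 102 and 103 CPM in RGC-like and 3.13 and 2.64 in IPC-like cells (−4.98, SE 0.16), and Id3, Id4 and Hes5 were at −4.41, −4.08 and −3.41. Of the 12 factors that act downstream in neurons, all 12 were higher (median 4.73), led by the repressor Scrt2 (6.33) and by Myt1l (6.20), Neurod2 (5.29) and Ebf2 (5.20). From IPC-like to PN-like cells this list split, with 4 higher and 7 lower: Myt1l rose by 1.52 and Neurod2 by 0.78, and Ebf2 (−4.35) and Scrt2 (−1.31) fell.

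Of 4 Notch ligands, 2 were higher in IPC-like cells, Dll3 (4.16, from 1.01 and 0.927 to 13 and 23.2 CPM) and Dll1 (1.57), while Jag1 was lower (−1.69) and Jag2 was at −0.35 (adjusted p = 0.553). Of the E proteins, partners of the proneural factors, Tcf4 (0.67) and Tcf12 (0.53) were higher in IPC-like cells, and Tcf3 was at −0.13 (adjusted p = 0.269). From IPC-like to PN-like cells all 3 were lower past the threshold, with Tcf4 at −0.86, Tcf12 at −1.34 and Tcf3 at −1.45. Of 9 regulators of progenitors, 3 were higher and 5 lower, among them the cell cycle inhibitor Cdkn1c (4.86), the Insm1 partner Rcor2 (3.03), Hmga2 (−4.33) and the stem cell factor Sox2 (−2.39). Of 11 relatives of the 9 genes, 6 had enough UMIs to be tested, 1 was higher and 4 were lower. Gadd45a was higher in IPC-like cells (1.75), as Gadd45g was, while Gadd45b (−1.36, adjusted p = 0.0451), Btg3 (−1.06) and Btg1 (−0.92) were lower, opposite to Btg2.

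Genes with the most similar pattern were sought over 49 sums of cluster and replicate among 7179 genes, as Pearson's r of log2(CPM + 1). For Eomes these were Mfng (r = 0.84) and Abcd2 (0.80), for Neurog2 Celsr1 (0.85) and Rhbdl3 (0.83), and for Neurog1 Rhbdl3 (0.68) and Kif26b (0.67). For Insm1 they were Bcl7a (0.89) and Rcor2 (0.88), for Neurod1 Prdm8 (0.85) and Rnd2 (0.84), and for Neurod4 Kif26b (0.76) and Mfng (0.72). For Btg2 they were Dcaf8 (0.83) and Epb41l5 (0.83), for Gadd45g Dmrta2 (0.73) and Mfng (0.72), and for Hes6 Ppp2r3c (0.81) and Ago1 (0.80). Among the 9 themselves, r was 0.83 for Eomes with Neurod4 and for Eomes with Neurog2, and lowest for Neurod1 with Neurog1, 0.18. The sums share libraries and clusters, and Mfng and Rhbdl3 are among the markers that named IPC-like cells, so these values order the genes and are not a test.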

How the data were processed

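Single-cell RNA was measured in 2 libraries of WT dorsal telencephalon, replicates 1 and 3; the labels do not say how many embryos each holds, so p-values measure the spread between these 2 libraries. The authors deposited raw UMI counts per gene and barcode, made with Cell Ranger 7.0.0 on the mm10 build per the submitters' processing notes; nothing was normalised before deposit, and the barcodes held at least 500 UMIs. Genes were matched by symbol, and positions and promoters came from RefSeq (GRCm38.p6). The 9 genes and all lists were chosen with earlier results of these data known.

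Filters kept cells between 1500 and 60000 UMIs whose mitochondrial share was under 10%, and 4.93% and 7.09% of barcodes were removed as predicted doublets by similarity to simulated doublets. The 2000 most variable genes, without the 9 genes and the 47 pathway genes, gave 30 principal components, 15 neighbours and Leiden clusters at resolution 1.0 (scanpy 1.11.5, leidenalg 0.10.2). A cluster was named by the class with the most of its markers on, a marker being on above 0.75 of its scaled range over clusters, a value set after seeing the data, and ties stayed unnamed. The genes named in the text are the 9, up to 4 genes of each pathway list by the size of their fold change between IPC-like and RGC-like cells, and the 2 most similar genes of each of the 9.

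Tests used UMI sums of each class in each replicate (8 sums of RGC-like, IPC-like, PN-like and MGE interneuron-like cells) or per class, phase and replicate (12 sums of cells thinned to 3000 UMIs; 21 and 30 RGC-like and 7 and 44 IPC-like cells were shallower and left out). Sums were tested with edgeR 4.0.16 (R 4.3.3), TMM scaling, its filter on low counts, the quasi-likelihood test and Benjamini-Hochberg adjustment over all genes tested, threshold 0.05; the tests are two-sided. The fit was tested on simulated counts. SEs were not taken from the fit: each is the absolute fold change divided by the square root of the test's F statistic. Fold changes carry a prior count of 2. Sums of one replicate come from the same library, so the replicate numbers pair them: their deviations from the class means correlated at 0.015 to 0.239 over 6 pairs of class sums and at 0.059 to 0.234 over 15 pairs of phase sums, and the fit with the replicate as a block was an alternative. Other alternatives were DESeq2 1.42.0, other scalings, filters, thinning depths, cluster resolutions and placements of unnamed clusters.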

Additional observations from a re-analysis of the deposited data

Results flagged for a closer look

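The step from G1 to S calls differed between IPC-like and RGC-like cells in the test of the interaction for 4 of the 9 genes. On the log2 scale the difference was 2.14 for Neurog2, 1.45 for Btg2, 3.05 for Gadd45g and 1.48 for Hes6. The IPC-like S cells behind these values numbered 48 and 68, and most were of cluster 17 (27.6% and 26.9% of its cells were called S, against 3.32% and 3.75% of cluster 4). In replicate 1 Neurog2, Btg2 and Gadd45g were lower in S than in G1 of IPC-like cells, and in replicate 3 they were higher. The part of cluster makeup in these differences was not tested.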

How the results depend on the processing

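The class comparisons and phase comparisons were refitted under other scalings, filters and clusterings; the value of the marker threshold and the placements of cluster 9 were added after seeing the data. Of 364 refitted class fold changes of the 9 genes, 330 kept their direction and their side of the threshold, as did 144 of 162 values of the phase fold changes that passed with or without the block. The values with no test were set against the spread between the replicates. Counted as moved were 191 of 324 shares of cells and 84 of 164 ratios of pairs. So were 14 of 36 peak bins and 24 of 88 fold changes from 1 replicate. Where both replicates were at 0, as for Neurod4 in RGC-like and PN-like cells, an unchanged share counted as moved. The shares and ratios include values from 1 replicate, which otherwise lie within the spread by construction. These counts are therefore only a rough guide. Between IPC-like and RGC-like cells the number of the 9 past the threshold went from 9 to 5 at Leiden resolution 2.0 and to 5 with markers on above 0.5; Neurog1, Neurog2, Btg2 and Gadd45g were lost in both. Between PN-like and RGC-like cells Eomes, short of the threshold at −0.84, passed at −2.17 with resolution 0.5, −2.83 with no filter on cells and −4.02 with at least 3000 UMIs and under 5% mitochondrial UMIs. The fold change of Hes6 between PN-like and RGC-like cells turned from 0.09 to −0.13 with library sizes only, −0.021 with DESeq2 size factors, −0.018 with the DESeq2 test, −0.22 with no filter on cells, −0.71 with at least 3000 UMIs and under 5% mitochondrial UMIs, −0.30 at resolution 0.5, −0.80 at resolution 2.0, −0.78 with markers on above 0.5 and −0.78 with cluster 9 in RGC-like cells.

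Counts of genes in the phase comparisons moved more. For S against G1 in RGC-like cells, 475 genes passed, and 310 with DESeq2, 811 with the replicate block, 1393 with markers on above 0.5 and 1482 with cluster 9 in RGC-like cells, where 7 and 7 of the 9 passed in place of 4. For G2M against G1 in RGC-like cells the 539 genes became 353, 1040, 1434 and 1480 under the same settings, with 7 and 8 of the 9 under the last 2 in place of 3. In IPC-like cells, S against G1 called 2 of the 9 in place of 1 with thinning to 5000 UMIs and 2 with markers on above 0.5, and G2M against G1 called 1 in place of 2 with DESeq2 and 1654 genes in place of 1102 with the replicate block. The interaction for S called 121 genes, and 304 with no filter on low counts, 377 with the replicate block, 260 with thinning to 5000 UMIs, 329 (7 of the 9) with markers on above 0.5, and 235 (7 of the 9) or 64 with cluster 9 in RGC-like or IPC-like cells. The interaction for G2M called 62 genes and 0 of the 9, and 164 (1), 251 (3), 118 (0), 304 (6), 193 (6) and 21 (0) in the same order. The replicate block changed the calls named in the report and no other call among the 9 genes. The cause of these shifts was not tested, except that the last settings change which cells a class holds.

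The ratio for Neurog2 and Eomes in IPC-like cells, 1.29 as a mean, was 1.38 and 1.26 with thinning to 1500 and 5000 UMIs, 1.18 without thinning, 1.48 without a filter on cells, 1.79 with at least 3000 UMIs and under 5% mitochondrial UMIs, 1.69 and 1.52 at resolutions 0.5 and 2.0, 1.14 with the 9 genes among the variable genes and 1.75 with markers on above 0.5, and 1.28 to 1.31 with 1 replicate left out. The ratio for Neurog2 and Neurod1, 0.650, was 0.599, 0.769, 0.877, 0.624, 0.665, 0.630, 0.682, 0.570 and 0.724 in the same order, 0.583 with predicted doublets kept and 0.648 to 0.652 with 1 replicate left out. It stayed below 1 and the first above 1 under all of these. With 1 replicate left out the sums allowed a fold change but no test and no count of genes. Depth limits Neurog1 and Neurod4 most, with 663 and 641 UMIs over both libraries.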
